A study of Mus musculus with 36 samples.

Results

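The left ventricle of the mouse was compared 1 day after myocardial infarction (MI) or a sham operation, in 3 mRNA libraries per group. A gene was included when its deposited FPKM value (sequenced fragments normalized to transcript length and to the size of the library) reached 1 in at least 3 of these 6 libraries, and 11420 of 16415 genes in the table met this rule. The MI mice were C57BL/6 males, 8 weeks old, whose proximal left anterior descending coronary artery had been tied. Sham mice matched them in strain, sex and age, and were operated on with no ligature closing the vessel. The labels name no transgene or drug in either group. The labels say that ventricles were pooled before RNA extraction and do not say how many animals a library holds. The p-values therefore measure the spread between libraries, which may be technical. That spread was estimated in 1 fit from all 18 mRNA libraries of the series, including those of 1 week and 8 weeks.

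When a coronary artery closes, the heart muscle beyond it loses oxygen and cardiomyocytes die within hours. Dying cells release signals that make endothelium display adhesion molecules and make resident cells secrete chemokines. Neutrophils leave the blood by rolling on selectins and holding on with integrins, and monocytes enter after them. Cells that survive with little oxygen stabilise the transcription factor HIF-1, which raises glucose uptake and glycolysis. Protein damage, amino acid shortage and oxidants each turn on a stress program of their own.

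The summed FPKM lay between 298162 and 324813 in the 6 libraries. Within a group the log2(FPKM + 1) values of any pair of libraries had Pearson correlations of 0.989 to 0.997 across the 12858 genes tested, and between groups of 0.787 to 0.849; genes are not independent replicates. The 100 most abundant genes held 31.2 to 33.0% of the summed FPKM in MI and 39.3 to 40.9% in sham libraries. The tissue matched its label: Myl2, the ventricular myosin light chain, lay at 3331 to 4170.5 FPKM in MI and 8452 to 9339 FPKM in sham libraries, whereas Myl7, the atrial form, lay below 0.2 FPKM in each library except sham replicate 2, at 2.13 FPKM. Sln, another atrial gene, lay at 1.17 FPKM in that library and below 0.2 in the others. MI replicate 1 had the lowest summed level of the chemokine, chemoattractant receptor, leukocyte adhesion and monocyte lists among the MI libraries, and counts of calls without it are given with the limits. FPKM values hold no read counts, which leaves the sequencing depth unknown.

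Of the 11420 genes, 4888 were higher and 3691 lower with MI at 1 day, and 2841 did not pass (limma on log2(FPKM + 1), adjusted p below 0.05). Among the 12858 genes tested the shares called were 39.7% higher and 30.6% lower, so the count of a gene list must be read against these. A change of at least 1 on the log2 scale was reached by 1959 of the higher and 1233 of the lower genes, and one of at least 3 by 277 and 6. The changes were thus unequal in size, with far more large rises than large falls. The median log2 fold change of the members was 0.13. Of the calls among members 56.98% were rises. Quantile normalization gave 45.48%, scaling by median-ratio factors 52.38% and the deposited normalized values 45.47%, while the median over the genes tested moved from 0.09 to -0.08, 0.02 and -0.07. Whether more genes rose or fell therefore depended on the scaling, and small changes are read against these shifts. The 3 MI and 3 sham libraries did not overlap for 9569 members, and over all 12858 genes tested they did not overlap for 81.3%. For a single such gene the exact two-sided permutation test gives p = 0.1, the smallest value that 3 against 3 libraries allow.

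A total of 663 members reached 1 FPKM in each MI library and in no sham library, and 425 showed the reverse. The 15 largest rises of genes with a mean of at least 5 FPKM were mostly genes of neutrophils and inflammatory monocytes, and the 15 largest falls included genes of cardiomyocyte membranes, calcium handling and protein turnover.

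**Figure D1:**
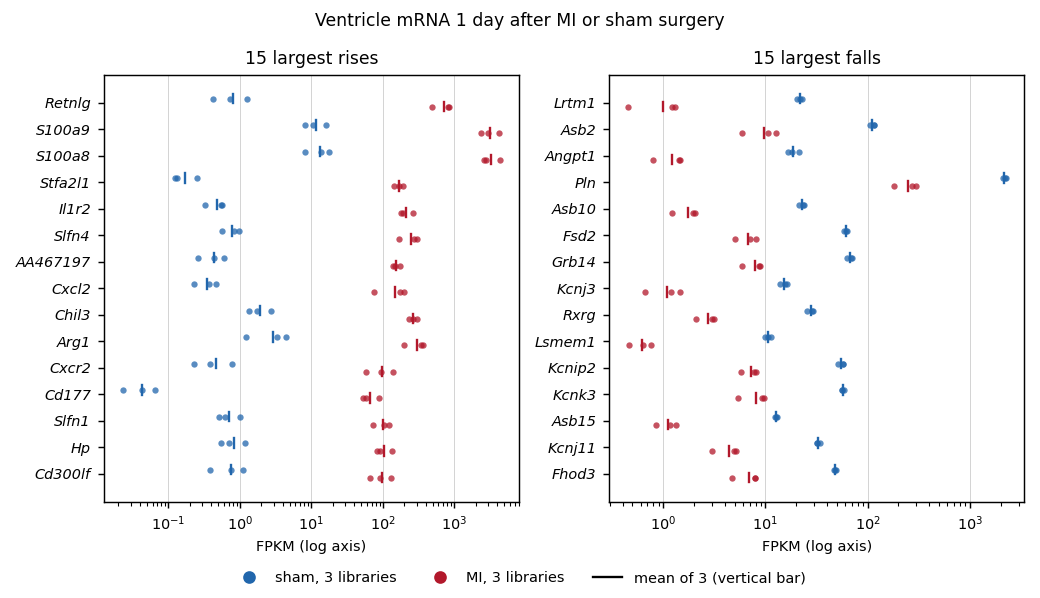
FPKM on a log axis of the 15 genes with the largest rises (left) and the 15 with the largest falls (right) 1 day after MI; each point is a library, blue for the 3 sham and red for the 3 MI libraries, and vertical bars are means of 3. Only genes without overlap between MI and sham libraries could be drawn, so the points are separate in every row by selection. The gap is wider on the left (Retnlg, 0.798 to 722 FPKM on average) than on the right (Lrtm1, 21.7 to 0.992 FPKM).

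Genes of neutrophils led the rises. Stfa2l1, a stefin that inhibits cysteine proteases in granulocytes, lay at 169, 192 and 142 FPKM in the MI libraries and 0.132, 0.124 and 0.249 FPKM in the sham libraries (log2 fold change 7.16 ± 0.21 (SE), adjusted p = 6.4e-13). Slfn4, a schlafen gene of the myeloid lineage, lay at 170.1, 303 and 275 FPKM in the MI libraries and 0.570, 0.960 and 0.828 FPKM in the sham libraries (log2 fold change 7.09 ± 0.21). Cd177, a surface protein carried by neutrophils, lay at 52.7, 89.2 and 57.5 FPKM in the MI libraries and 0.0228, 0.0643 and 0.0431 FPKM in the sham libraries (log2 fold change 5.98 ± 0.13). In each of these genes the lowest MI library was far above the highest sham library, and sham levels were near or below 1 FPKM. AA467197, also called Nmes1, rose from 0.432 ± 0.175 to 155 ± 17.3 FPKM (mean ± s.d., n = 3), Slfn1 from 0.716 ± 0.258 to 100.2 ± 25.0 FPKM and Cd300lf, an inhibitory receptor of myeloid cells, from 0.748 ± 0.361 to 96.3 ± 32.4 FPKM. In bulk tissue, more cells of a type and more RNA per cell cannot be told apart.

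The largest falls were of another kind. Lrtm1, a membrane protein of striated muscle, lay at 1.3, 0.453 and 1.23 FPKM in the MI libraries and 22.6, 20.5 and 21.9 FPKM in the sham libraries (log2 fold change -3.54 ± 0.26 (SE), adjusted p = 7.3e-09). Asb2, which recruits substrates to a ubiquitin ligase in muscle, lay at 12.7, 5.85 and 10.5 FPKM in the MI libraries and 114, 114 and 105 FPKM in the sham libraries (log2 fold change -3.45 ± 0.30), and the related Asb10 and Asb15 were lower, with log2 fold changes of -3.14 and -2.70. Angpt1, the ligand that stabilises vessels through the receptor Tek, lay at 1.47, 0.797 and 1.41 FPKM in the MI libraries and 16.7, 21.2 and 18.1 FPKM in the sham libraries (log2 fold change -3.15 ± 0.20). Angpt1 thus lost most of its mRNA within a day, in each of the 3 libraries. Its receptor Tek fell from 15.3 ± 2.52 to 8.87 ± 0.650 FPKM. Grb14, an adaptor that restrains insulin receptor signalling, fell from 67.6 ± 3.79 to 7.81 ± 1.63 FPKM, Rxrg, a retinoid X receptor, from 27.7 ± 2.14 to 2.75 ± 0.565 FPKM, and Fhod3, a formin that builds sarcomeric actin, from 48.0 ± 0.854 to 6.85 ± 1.87 FPKM.

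**Figure D2:**
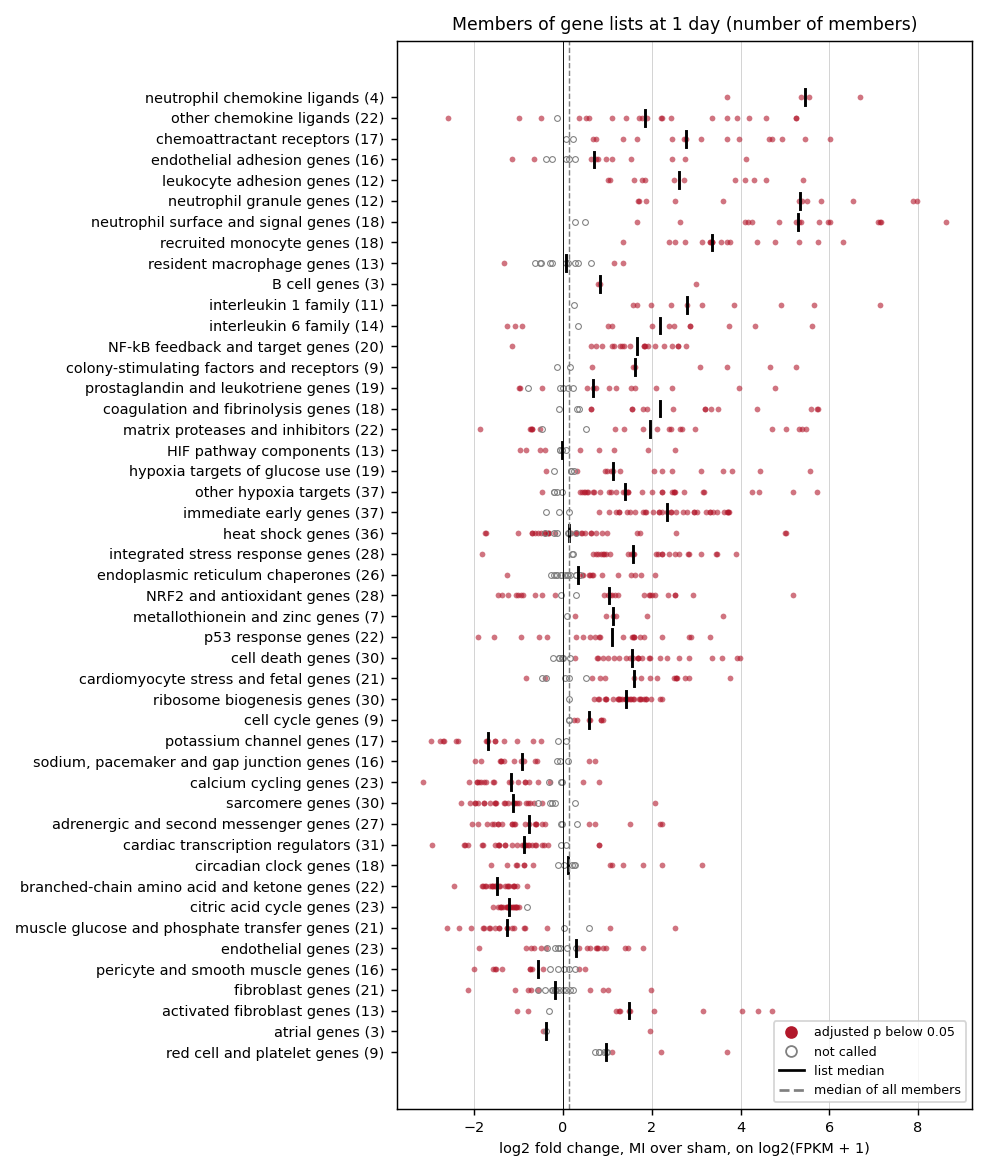
Log2 fold change of MI over sham at 1 day, on log2(FPKM + 1), for the members of each gene list (rows, number of members in brackets); filled points passed an adjusted p of 0.05, open points did not, black bars are list medians and the dashed line is the median of all members at 0.13. Lists with at least 3 members are drawn. The neutrophil chemokine, granule and surface lists lie farthest to the right, with medians of 5.46, 5.34 and 5.28, and potassium channel and amino acid breakdown lists farthest to the left, with medians of -1.69 and -1.49.

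Leukocytes enter tissue in steps, and each step was followed through its genes. A member that reached 1 FPKM in MI libraries alone had to be higher there, so counts of rises are partly set by the inclusion rule. This held for 12 of 18 neutrophil surface members, 5 of 12 granule members, 6 of 12 leukocyte adhesion members, 7 of 17 chemoattractant receptors, 4 of 18 recruited monocyte members, 1 of 4 neutrophil chemokine ligands, 5 of 22 other chemokine ligands and 5 of 11 interleukin 1 family members. It also held for 2 of 16 endothelial adhesion, 6 of 14 interleukin 6 family, 6 of 22 matrix protease and 5 of 20 NF-kB members. Immediate early, integrated stress response and cell death lists had 6 of 37, 5 of 28 and 5 of 30, and other lists had some too. Among the lists that fell it held in reverse for 3 of 17 potassium channel members. The same was true of 4 of 16 sodium channel, pacemaker and gap junction, 3 of 27 adrenergic and 2 of 23 calcium cycling members. None of the sarcomere, citric acid cycle or branched-chain amino acid members was included in that way. The ligands that draw neutrophils through the receptor CXCR2 were almost absent from sham ventricles. Cxcl2 lay at 75.9, 174 and 199 FPKM in the MI libraries and 0.227, 0.365 and 0.459 FPKM in the sham libraries (log2 fold change 6.69 ± 0.34 (SE), adjusted p = 1.6e-10). Cxcl1 lay at 126, 149 and 141 FPKM in the MI libraries and 1.34, 1.69 and 3.17 FPKM in the sham libraries (log2 fold change 5.55 ± 0.20). Cxcl5 lay at 102, 180.1 and 109.5 FPKM in the MI libraries and 1.59, 2.40 and 2.30 FPKM in the sham libraries (log2 fold change 5.37 ± 0.24). Cxcl2 in MI replicate 1 was below the other MI libraries, but was still over 100-fold the highest sham value. Ppbp, a platelet chemokine of the same group, rose by 3.69 log2 units, so that all 4 members of this list were higher, with a median log2 fold change of 5.46 against 0.13 over all members.

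The promoters of Cxcl1 and Cxcl2 are printed because these are the steepest rises among the ligands that attract neutrophils. Each is the 250 bases before the RefSeq start on the plus strand, in the coordinates of build GRCm38.p6 (which is also mm10), at chr5:90890995-90891244 for Cxcl1 and chr5:90903649-90903898 for Cxcl2. Capitals mark matches to a form of the NF-kB motif, GGGNN followed directly by TTTCC, searched on both strands.
Cxcl1: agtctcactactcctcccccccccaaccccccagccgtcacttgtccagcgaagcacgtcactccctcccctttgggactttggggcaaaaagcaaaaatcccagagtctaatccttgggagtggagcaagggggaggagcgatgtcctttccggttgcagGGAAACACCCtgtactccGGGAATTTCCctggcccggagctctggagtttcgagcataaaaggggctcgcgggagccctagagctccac
Cxcl2: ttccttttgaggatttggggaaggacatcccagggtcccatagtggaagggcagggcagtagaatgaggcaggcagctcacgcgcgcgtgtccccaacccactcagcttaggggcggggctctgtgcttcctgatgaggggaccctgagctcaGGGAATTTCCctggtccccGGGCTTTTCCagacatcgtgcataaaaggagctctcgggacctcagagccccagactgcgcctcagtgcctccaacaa

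Each of these promoters held the motif at 2 places, 89 and 71 bases before the start in Cxcl1 and 97 and 78 bases in Cxcl2. The motif was found in 1.63% of the 32851 promoters of the table, counting 250 bases before to 50 after the start. Counted by gene, where any promoter of the gene may hold it, the shares were 1.89% of all genes and 2.02% of members. List counts here and below are by gene. Among the list of NF-kB feedback and target genes 4 of 16 matched genes held it, and among the neutrophil chemokines 2 of 3. A match is a description of these letters and was not tested for binding.

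Among the 22 members of the other chemokine ligands 18 were higher and 3 lower, with a median of 1.84. Ligands of monocyte and macrophage receptors rose most. Ccl2, which draws monocytes through CCR2, lay at 152, 292 and 209 FPKM in the MI libraries and 8.77, 13 and 10.4 FPKM in the sham libraries (log2 fold change 4.19 ± 0.29). Ccl7, which acts on the same receptor, rose from 9.84 ± 2.40 to 112 ± 35.7 FPKM, Ccl3 from 0.384 ± 0.200 to 36.8 ± 20.7, Ccl4 from 0.632 ± 0.191 to 70.7 ± 38.8 and Ccl6 from 10.9 ± 2.88 to 461 ± 157 FPKM. Cxcl10, a target of interferon, rose by 3.70 log2 units. Against this direction, Ccl21a, the lymphatic chemokine that guides dendritic cells and T cells, lay at 2.71, 2.08 and 2.11 FPKM in the MI libraries and 17.6, 17.7 and 21.0 FPKM in the sham libraries (log2 fold change -2.58 ± 0.27 (SE), adjusted p = 3.3e-07). The 2 groups of libraries were well apart. Ccl27a, a chemokine of epithelia, fell by 0.99 log2 units. Cxcl12, which holds cells through CXCR4, lay at 29.8, 28.5 and 37.4 FPKM in MI and 44.1, 43.6 and 47.9 FPKM in sham libraries (log2 fold change -0.50, adjusted p = 0.043), a call that 6 of the alternatives did not make. Genes for chemokines with closely related copies, such as Ccl21a, may share reads with those copies.

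Receptors for these signals rose with them: 15 of 17 members were higher, none was lower, and the median was 2.77. Cxcr2, the neutrophil receptor for the CXC ligands above, lay at 59.1, 138 and 94.7 FPKM in the MI libraries and 0.227, 0.770 and 0.386 FPKM in the sham libraries (log2 fold change 6.01 ± 0.24 (SE), adjusted p = 1.7e-11). Ccr1 rose from 0.978 ± 0.271 to 87.6 ± 28.2 FPKM, and the formyl peptide receptors Fpr1 and Fpr2, which sense bacterial and mitochondrial peptides, rose by 4.71 and 4.93 log2 units. Ltb4r1, the receptor of leukotriene B4, rose by 4.63 log2 units, and C5ar1, that of complement fragment C5a, by 3.95. Ccr2, which marks recruited monocytes, lay at 27.8, 44.6 and 34.0 FPKM in the MI libraries and 1.24, 2.53 and 1.69 FPKM in the sham libraries (log2 fold change 3.69 ± 0.30). Cx3cr1, a receptor of resident macrophages and patrolling monocytes, lay at 0.953, 1.08 and 1.31 FPKM in the MI libraries and 0.831, 1.17 and 1.09 FPKM in the sham libraries and did not pass (log2 fold change 0.06, adjusted p = 0.84). The chemokine receptors thus divided, with those of neutrophils and classical monocytes higher and Cx3cr1 at overlapping values.

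**Figure D3:**
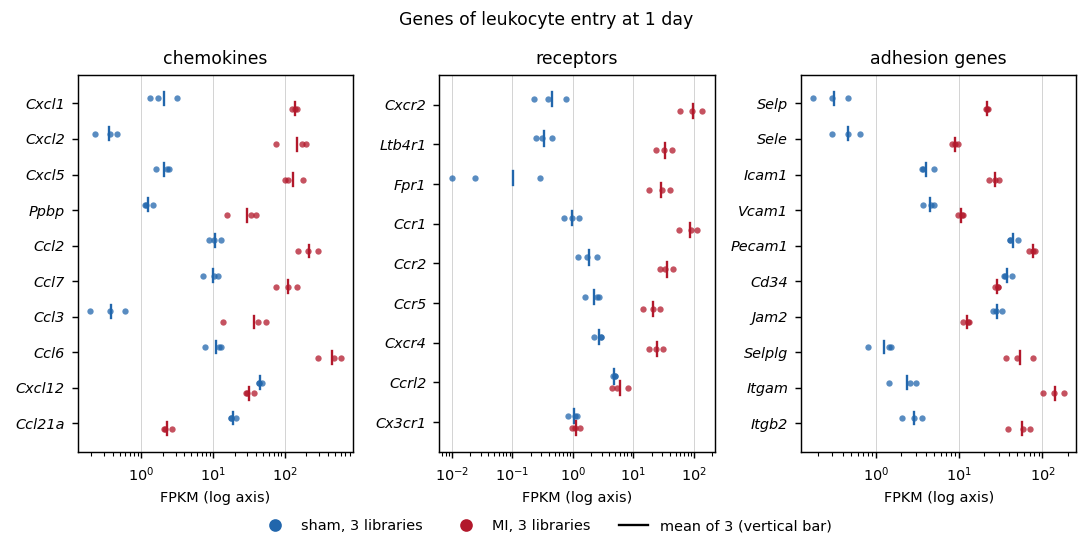
FPKM on a log axis of chemokines, chemoattractant receptors and adhesion genes 1 day after MI (red, 3 libraries) or sham surgery (blue, 3 libraries); vertical bars are means of 3. Most MI points lie to the right of the sham points, while Ccl21a (18.8 in sham, 2.30 FPKM in MI) and Jam2 (28.4 and 12.3 FPKM) lie to the left and Cx3cr1 overlaps.

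Among the endothelial adhesion genes, Selp and Sele, selectins that catch leukocytes, changed most. They reached 1 FPKM in MI libraries alone, so they had to be higher there. Selp, P-selectin, lay at 20.8, 22.2 and 21.8 FPKM in the MI libraries and 0.177, 0.458 and 0.293 FPKM in the sham libraries (log2 fold change 4.12 ± 0.26 (SE), adjusted p = 1.6e-09). Platelet genes were also higher in these libraries, and which cells held the Selp mRNA was not tested. Sele, E-selectin, lay at 8.14, 9.66 and 8.78 FPKM in the MI libraries and 0.296, 0.636 and 0.459 FPKM in the sham libraries (log2 fold change 2.76 ± 0.13). Icam1, the ligand of leukocyte β2 integrins, rose from 4.03 ± 0.797 to 26.6 ± 3.51 FPKM, and Vcam1, the ligand of the α4 integrin, from 4.42 ± 0.681 to 10.5 ± 0.727 FPKM. The junction proteins through which leukocytes pass did not move together: Pecam1 was higher by 0.78 log2 units and Esam by 0.96, whereas Jam2 was lower by 1.14 and Cd99l2 fell by 0.65. Of 16 endothelial adhesion members 9 were higher and 2 lower (median 0.69). The partners on the leukocyte were all higher, 12 of 12 members, with a median of 2.62. Itgam, the α chain of the Mac-1 integrin, lay at 102, 181 and 138 FPKM in the MI libraries and 1.42, 3.00 and 2.56 FPKM in the sham libraries (log2 fold change 5.40 ± 0.34), and Selplg, the ligand that selectins grip, rose by 4.56 log2 units.

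All 12 neutrophil granule members were higher, with a median of 5.34. Mmp8, the neutrophil collagenase, lay at 56.3, 41.8 and 40.9 FPKM in the MI libraries and 0.102, 0.108 and 0.168 FPKM in the sham libraries (log2 fold change 5.38 ± 0.12 (SE), adjusted p = 4.0e-14). Mmp9, a gelatinase, lay at 53.3, 99.4 and 68.5 FPKM in the MI libraries and 0.501, 1.12 and 0.910 FPKM in the sham libraries (log2 fold change 5.31 ± 0.41). Mmp8 and Mmp9 were abundant, whereas Ngp and Ltf, which neutrophils transcribe mainly while still in the marrow, reached 16.2 and 2.80 FPKM on average. Camp, a marrow-stage gene as well, stayed below the inclusion rule, at 2.54 FPKM in MI replicate 1 and below 1 in the others. Of 18 members of the neutrophil surface and signal list 16 were higher (median 5.28), among them Csf3r, the G-CSF receptor (1.20 ± 0.545 to 86.2 ± 35.7 FPKM), Trem1 (log2 fold change 4.86) and Hdc, which makes histamine (log2 fold change 4.25). Lrg1 and G0s2 did not pass (log2 fold changes 0.49 and 0.26), and both were already at 49.0 and 38.7 FPKM in sham ventricles. The summed FPKM of the list was 1816 to 2565 in MI and 88.5 to 98.8 in sham libraries. Ly6g, Mcemp1 and several stefin genes of the list had no row in the table, and reads of the stefin copies may be shared with Stfa2l1.

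Recruited monocyte genes were higher in 18 of 18 members, with a median of 3.36 and summed FPKM of 927 to 1825 in MI and 60.3 to 123 in sham libraries. Of the 20 list genes 2 stayed below the inclusion rule and moved in opposite directions. Gpnmb was lower, at 0.394 to 0.532 FPKM in MI and 0.598 to 1.39 FPKM in sham libraries. Ly6i was higher, at 0.936 to 2.21 FPKM in MI and 0.0422 to 0.0995 FPKM in sham libraries. Arg1, the arginase of inflammatory and repairing macrophages, lay at 198, 363 and 339 FPKM in the MI libraries and 1.21, 4.36 and 3.26 FPKM in the sham libraries (log2 fold change 6.30 ± 0.34 (SE), adjusted p = 2.8e-10). Cd14, the co-receptor for lipopolysaccharide, rose by 5.31 log2 units, Ly6c2, which marks classical monocytes, by 3.31, and F10, coagulation factor X, by 4.36. Thbs1, thrombospondin, which is in the coagulation list as well, rose from 2.66 ± 0.938 to 206 ± 90.7 FPKM. Its libraries spread widely, at 102, 269 and 248 FPKM in MI. By contrast, the 13 resident macrophage members had a median of 0.06, near the 0.13 of all members, with 2 higher, 1 lower and 10 not called. The count of lower members depended on the setting. It was 4 under quantile normalization and in the deposited normalized values, 3 under median-ratio scaling and 5 in a fit of the 6 libraries alone. Gas6, a ligand for clearing dead cells, fell from 38.3 ± 2.24 to 14.6 ± 1.01 FPKM, while Lyve1, which lymphatic vessels also express, rose from 4.95 ± 0.966 to 12.1 ± 0.463 FPKM (log2 fold change 1.15 ± 0.39 (SE), adjusted p = 0.015). Maf was the other member called higher, and the largest log2 fold change of the list was 1.36. Folr2, Cd163 and Cbr2 had overlapping or uncalled levels, with log2 fold changes of -0.26, 0.27 and -0.50. Cbr2 was called lower under quantile normalization, in the deposited normalized values and in the 6 libraries alone. The list summed to 69.7 to 75.9 FPKM in MI and 79.2 to 98.8 in sham libraries.

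T and NK cell genes stayed low. None of the 22 T and NK cell genes met the inclusion rule, the highest value in any library was 0.934 FPKM for Klrd1, and the summed level was 6.07 to 7.06 FPKM in MI and 1.95 to 2.51 FPKM in sham libraries. Of 14 B cell genes 3 were members. Cd37, which other leukocytes also express, rose by 3.01 log2 units on the log2 scale, and Cd79a and Cd79b, the chains of the B cell receptor, from 0.594 to 1.77 and from 0.672 to 1.97 FPKM. The latter pair met the inclusion rule through MI libraries only, so that they had to be higher there. The call of Cd79a was lost under 3 of the alternatives.

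Several inflammatory pathways rose at both the ligand and the receptor level. In the interleukin 1 family 10 of 11 members were higher and none lower (median 2.80). Il1b, the main secreted ligand, lay at 60.7, 176 and 161 FPKM in the MI libraries and 0.686, 1.77 and 1.94 FPKM in the sham libraries (log2 fold change 5.66 ± 0.42 (SE), adjusted p = 8.4e-09). The inhibitors rose too: Il1rn, the receptor antagonist, from 0.750 ± 0.380 to 56.5 ± 27.3 FPKM, and the decoy receptor Il1r2 to 178 to 267 FPKM, above the 10.6 to 13.3 FPKM of the signalling receptor Il1r1. Il33, an alarmin of structural cells, rose by 2.44 log2 units. In the interleukin 6 family 10 of 14 members were higher and 3 lower. Il6 lay at 42.6, 73.2 and 66.2 FPKM in the MI libraries and 0.161, 0.303 and 0.244 FPKM in the sham libraries (log2 fold change 5.61 ± 0.21). Osm, oncostatin M of neutrophils and macrophages, rose by 3.74 log2 units, Lif by 2.87, Il11 by 2.51 and Socs3, the inhibitor that this pathway induces, from 2.37 ± 0.608 to 67.8 ± 19.7 FPKM. Against them, Ctf1, cardiotrophin, fell by 1.09 log2 units, the receptor Il11ra1 fell by 1.25 and the receptor Lifr fell by 0.93. Il11 and its receptor therefore moved in opposite directions, and so did Lif and Lifr.

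NF-kB feedback and target genes were higher in 19 of 20 members (median 1.67). Nfkbia, which encodes the inhibitor IκBα, rose from 13.2 ± 2.97 to 84.3 ± 17.9 FPKM, Tnfaip3, the deubiquitinase A20, by 2.60 and Nfkbiz by 2.76 log2 units. The member that fell was Sod2, the mitochondrial superoxide dismutase, an abundant gene of heart muscle as well, which lay at 43.4, 41.4 and 47.4 FPKM in the MI libraries and 103, 95 and 99.7 FPKM in the sham libraries (log2 fold change -1.15 ± 0.17). Tnf itself reached 1.43 to 5.46 FPKM in MI against 0.224 to 0.241 FPKM in sham libraries. Of 9 colony-stimulating factor and receptor members 7 were higher and none was lower (median 1.62): Csf2rb, which shares sequence with Csf2rb2, by 4.67 and Csf1r, that of macrophages, by 1.62 on the log2 scale.

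Of 19 members of prostaglandin and leukotriene synthesis 11 were higher and 3 lower (median 0.68). Ptgs2, the inducible cyclooxygenase, lay at 29.9, 34.1 and 39.6 FPKM in the MI libraries and 0.218, 0.280 and 0.405 FPKM in the sham libraries (log2 fold change 4.77 ± 0.24 (SE), adjusted p = 1.5e-10). Ptgs1, the constitutive form, lay at 2.42 FPKM in sham and 3.00 FPKM in MI and was not called. Alox5ap, which feeds the leukotriene pathway, rose by 3.97 log2 units, and Hpgd, which inactivates prostaglandins, was lower by 0.96. Coagulation and fibrinolysis genes were higher in 15 of 18 members, and none was lower (median 2.19). Plaur, the receptor of the urokinase activator, lay at 81.3, 144 and 115 FPKM in the MI libraries and 1.01, 1.46 and 1.54 FPKM in the sham libraries (log2 fold change 5.59 ± 0.22 (SE), adjusted p = 1.1e-11). The plasminogen activators Plau and Plat rose by 2.48 and 1.55 log2 units. F3, tissue factor, which starts clotting, lay at 6.95 FPKM in sham and 9.07 FPKM in MI libraries and was not called.

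Among matrix proteases and their inhibitors 14 of 22 members were higher and 6 lower (median 1.96). Adamts4 rose from 0.428 ± 0.117 to 46.1 ± 9.33 FPKM, Adam8, a protease of leukocytes, from 0.913 ± 0.293 to 87.6 ± 31.5 FPKM and Mmp14 by 2.40 log2 units. Timp1, the inducible inhibitor, rose by 4.71 log2 units and lay at 301 to 403 FPKM, whereas Timp4, the inhibitor most specific to heart, was lower by 0.73 (adjusted p = 0.016; lost under 2 of the alternatives). The membrane protease Mmp15 fell by 1.86 log2 units.

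Oxygen sensing was next examined through the HIF pathway. HIF proteins are controlled mainly by degradation, so their mRNA is a partial readout. Of 13 components 5 were higher and 4 lower (median -0.03). Hif1a lay at 49.995, 78.2 and 64.7 FPKM in the MI libraries and 15.4, 15.5 and 16.8 FPKM in the sham libraries (log2 fold change 1.93 ± 0.16 (SE), adjusted p = 3.1e-08). Epas1, which encodes HIF-2α, went the other way, at 26.3, 25.5 and 29.7 FPKM in the MI libraries and 51.4, 52.1 and 59.8 FPKM in the sham libraries (log2 fold change -0.98 ± 0.15). The prolyl hydroxylases that mark HIF for degradation divided in the same manner. Egln3, itself a HIF target, lay at 112, 114 and 111 FPKM in the MI libraries and 21.6, 16.0 and 18.8 FPKM in the sham libraries (log2 fold change 2.52 ± 0.15), Egln1 was lower by 0.83 log2 units, and Egln2 had overlapping levels with a log2 fold change of -0.07. Quantile normalization and the deposited normalized values called Egln2 lower. Vhl, the recognition part of the ligase, rose by 1.16 log2 units.

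Targets of HIF in glucose use were higher in 14 of 19 members and lower in 1 (median 1.13), and other hypoxia targets in 32 of 37 and 1 (median 1.39). Slc16a3, the lactate exporter MCT4, lay at 77.7, 100.4 and 93.3 FPKM in the MI libraries and 0.826, 0.863 and 1.06 FPKM in the sham libraries (log2 fold change 5.57 ± 0.20 (SE), adjusted p = 3.4e-12). Slc2a1, the glucose transporter GLUT1, lay at 122, 125 and 127 FPKM in the MI libraries and 4.80, 4.85 and 4.71 FPKM in the sham libraries (log2 fold change 4.44 ± 0.10 (SE), adjusted p = 3.4e-14). Both genes were low in sham ventricles, and the MI libraries agreed within a narrow range. Pfkfb3, which makes an activator of glycolysis, rose by 3.81 log2 units, Eno1 from 45.7 ± 1.63 to 403 ± 31.1 FPKM and Ldha from 271 ± 11.4 to 537 ± 9.65 FPKM. Not every glycolytic gene was called higher: Gapdh lay at 1459 FPKM in sham and 1656 FPKM in MI libraries without a call. Quantile normalization and the deposited normalized values did call Gapdh higher (log2 fold changes 0.57 and 0.55). Aldoa, the muscle aldolase, was lower by 0.38 log2 units (adjusted p = 0.027, lost under 5 of the alternatives). Pdk1, which turns glucose carbon away from mitochondria, was not called either (log2 fold change -0.20).

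Among the other targets Ero1l, an oxidase for protein folding, lay at 99.0, 86.3 and 93.3 FPKM in the MI libraries and 3.74, 3.66 and 4.30 FPKM in the sham libraries (log2 fold change 4.26 ± 0.13). Adm, the vasodilator adrenomedullin, rose by 3.18 log2 units, Angptl4 by 4.41, Ndrg1 by 2.50, the cytokine Mif from 72.9 ± 3.47 to 296 ± 12.6 FPKM and Ankrd37 from 2.23 ± 0.401 to 17.3 ± 1.31 FPKM. Vegfa, the vessel growth factor, rose from 44.6 ± 4.84 to 72.9 ± 3.98 FPKM (log2 fold change 0.70 ± 0.14 (SE), adjusted p = 2.6e-04). Nos2, the inducible nitric oxide synthase, lay at 21.3, 17.7 and 19.999 FPKM in the MI libraries and 2.04, 1.82 and 2.44 FPKM in the sham libraries (log2 fold change 2.74 ± 0.13). The mitophagy genes Bnip3 and Bnip3l were higher by 0.38 and 1.39 log2 units, the former call being lost under 3 of the alternatives. The same libraries held the neutrophil lists, whose cells are glycolytic, and the part of leukocyte mRNA in these rises was not tested.

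Promoters of Slc16a3, Ldha and Ankrd37 are shown because their genes are hypoxia targets that rose and they hold the core HIF motif ACGTG more than once. They are the 250 bases before the RefSeq start in GRCm38.p6, at chr11:120948817-120949066 (plus strand), chr7:46845554-46845803 (plus strand) and chr8:45999851-46000100 (minus strand), written from 5′ to 3′ along the gene. Capitals mark ACGTG or its reverse complement, and where both overlap the palindrome CACGTG is in capitals.
Slc16a3: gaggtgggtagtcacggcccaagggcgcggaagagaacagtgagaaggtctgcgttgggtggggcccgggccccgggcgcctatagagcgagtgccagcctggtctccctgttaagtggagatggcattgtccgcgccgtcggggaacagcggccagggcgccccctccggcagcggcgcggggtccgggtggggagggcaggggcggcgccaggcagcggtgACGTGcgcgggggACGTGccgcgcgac
Ldha: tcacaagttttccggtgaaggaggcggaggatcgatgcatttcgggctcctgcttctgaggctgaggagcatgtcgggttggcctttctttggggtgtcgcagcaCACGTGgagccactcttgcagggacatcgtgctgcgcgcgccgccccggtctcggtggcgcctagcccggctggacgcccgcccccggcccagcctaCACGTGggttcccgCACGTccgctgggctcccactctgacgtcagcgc
Ankrd37: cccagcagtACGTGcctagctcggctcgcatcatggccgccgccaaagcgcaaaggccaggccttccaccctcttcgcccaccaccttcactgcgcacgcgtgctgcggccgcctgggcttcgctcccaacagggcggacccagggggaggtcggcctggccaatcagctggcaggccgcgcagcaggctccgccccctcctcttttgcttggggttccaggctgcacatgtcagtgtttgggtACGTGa

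In Slc16a3 the matches began 27 and 14 bases before the start, and in Ankrd37 241 and 6 bases before it. The Ldha promoter held 5 matches in 3 stretches, since each palindrome is read on both strands. The motif was present in 11 of 18 matched genes of the glucose list (61.1%) and in 17 of 24 of the other hypoxia list (70.8%). The shares were 21.78% of all genes and 29.87% of members. Promoters of Slc2a1, Pfkfb3 and Egln3 held it as well, and those of genes that were not called, such as Hk2 and Higd1a, did so too.

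Many steps of glucose use have a form that most cells use and a form of muscle, and these pairs moved apart. The transporter Slc2a1 rose, whereas Slc2a4, the insulin-regulated GLUT4, lay at 12.5, 9.74 and 16.1 FPKM in the MI libraries and 85.6, 75 and 84.0 FPKM in the sham libraries (log2 fold change -2.61 ± 0.30 (SE), adjusted p = 1.2e-06). On the FPKM scale Slc2a1 exceeded Slc2a4 in each MI library, and the reverse held in each sham library. Among phosphofructokinases Pfkp rose by 2.45 log2 units and Pfkl by 1.27, and Pfkm, the muscle form, fell from 211 ± 6.59 to 59.6 ± 7.88 FPKM. Among enolases Eno1 rose by 3.11 log2 units and Eno3 fell by 1.54. Among phosphoglycerate mutases Pgam1 rose by 2.23 log2 units and Pgam2 fell by 1.65. Ldha rose by 0.99 log2 units while Ldhb, the form that favours pyruvate, lay at 302, 270.1 and 298 FPKM in the MI libraries and 833, 744 and 804 FPKM in the sham libraries (log2 fold change -1.45 ± 0.29). Pygm, muscle glycogen phosphorylase, fell by 1.78 log2 units. Of the 21 members of the muscle glucose and phosphate transfer list 17 were lower and 2 higher, the latter being Pgm1 and Ampd3. Hexokinases did not divide in this manner: Hk1 rose by 0.94 log2 units and Hk2, the muscle form, lay at 39.6 and 45.4 FPKM in sham and MI without a call. Pgm1 in this table follows the older naming, in which the muscle form is Pgm2 (68.4 to 52.9 FPKM).

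**Figure D4:**
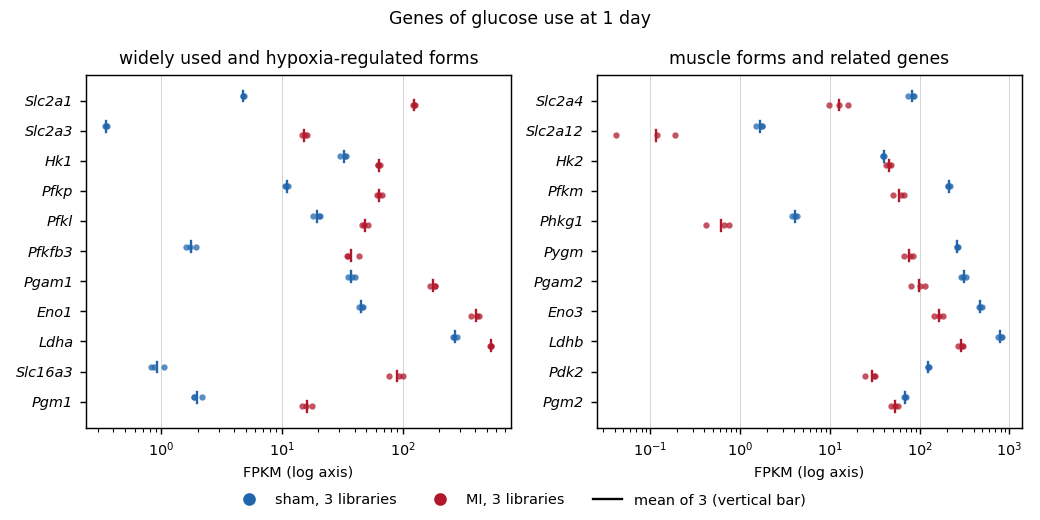
FPKM on a log axis of glucose-handling genes 1 day after MI (red, 3 libraries) or sham surgery (blue, 3 libraries), with widely used or hypoxia-regulated forms on the left and muscle forms and related genes on the right; vertical bars are means of 3. MI points lie to the right of the sham points in the left panel (Slc2a1, 4.79 to 125 FPKM) and to the left of them in the right panel (Slc2a4, 81.5 to 12.8 FPKM), except Hk2, which was not called.

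Stress programs were followed one by one. Immediate early genes, which respond within minutes to growth factors, stretch or damage, were still higher after 1 day in 34 of 37 members, with none lower (median 2.35). Atf3 lay at 44.3, 50.1 and 52.0 FPKM in the MI libraries and 2.55, 2.47 and 3.67 FPKM in the sham libraries (log2 fold change 3.69 ± 0.22 (SE), adjusted p = 8.7e-10). Myc rose from 1.08 ± 0.0592 to 26.6 ± 3.82 FPKM, Junb by 3.73 log2 units, Fosl1 by 3.02, Maff by 3.63 and Gadd45g by 3.47. Egr1 lay at 49.0, 46.5 and 46.2 FPKM in MI and 3.00, 3.37 and 5.62 FPKM in sham libraries, and Fos at 28.8, 31.2 and 32.7 and 0.666, 1.71 and 5.49. Sham levels of both varied more than MI levels in proportion, and the groups did not overlap. Srf, which drives many of these genes, had overlapping levels with a log2 fold change of -0.09, as had Klf2 (log2 fold change 0.14) and Klf4 (log2 fold change -0.38), transcription factors that endothelium maintains under flow. Quantile normalization, median-ratio scaling, the deposited normalized values and the replicate block called Klf4 lower. Srf was called lower under quantile normalization and in the deposited normalized values.

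The heat shock list was divided, with 16 of 36 members higher, 14 lower and a median of 0.13. Under quantile normalization, and likewise in the deposited normalized values, 10 were higher in place of 16. The inducible Hspa1a lay at 84.6, 76.8 and 111 FPKM in the MI libraries and 1.70, 1.72 and 1.95 FPKM in the sham libraries (log2 fold change 5.02 ± 0.21) and its near-identical neighbour Hspa1b at 82.3, 75.1 and 112 and 1.62, 1.82 and 1.93 FPKM, but reads of this pair cannot be assigned with certainty. Hspb1, the small chaperone HSP27, lay at 1487, 1288 and 1390.4 FPKM in the MI libraries and 236, 262 and 214 FPKM in the sham libraries (log2 fold change 2.55 ± 0.13 (SE), adjusted p = 2.2e-10). Dnajb1 rose by 1.68 log2 units and Hsp90aa1, the inducible cytosolic form, by 1.73, whereas Hsp90ab1, the constitutive form, was not called (log2 fold change -0.13). Quantile normalization, median-ratio scaling and the deposited normalized values called Hsp90ab1 lower. The mitochondrial chaperone Hspd1 fell by 0.64 log2 units, its partner Hspa9 fell by 0.43 and Fkbp4, a partner of steroid receptors, fell by 1.75. Of the members named here, inducible cytosolic chaperones were the ones that rose.

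Integrated stress response genes, which follow the factor ATF4 when translation is slowed, were higher in 25 of 28 members and lower in 1 (median 1.58). Asns, asparagine synthetase, lay at 14.8, 16.7 and 14.6 FPKM in the MI libraries and 0.912, 0.842 and 0.971 FPKM in the sham libraries (log2 fold change 3.10 ± 0.20 (SE), adjusted p = 2.1e-09). Gdf15, a secreted stress hormone, rose by 3.91 log2 units, Slc7a5, an amino acid transporter, by 3.45, Sesn2 by 2.83, Mthfd2 of the folate cycle by 2.81 and Atf4 itself from 33.7 ± 1.70 to 153 ± 13.3 FPKM. Vldlr, a lipoprotein receptor of heart muscle, fell by 1.82 log2 units. The promoter of Asns is printed as that of an established ATF4 target, the 250 bases before the start at chr6:7693210-7693459 on the minus strand of GRCm38.p6, with TGATGNAA in capitals, a composite CEBP-ATF motif searched on both strands.
Asns: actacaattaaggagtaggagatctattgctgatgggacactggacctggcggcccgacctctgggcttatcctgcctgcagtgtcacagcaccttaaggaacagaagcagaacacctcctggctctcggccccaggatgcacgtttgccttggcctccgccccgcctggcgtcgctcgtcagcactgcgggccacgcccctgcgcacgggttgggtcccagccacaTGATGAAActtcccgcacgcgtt

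The match began 23 bases before the start. The motif was held by 9 of 25 matched genes of this list (36.0%), against 4.51% of all genes and 2.8% of members. Vldlr was among the 9, although its mRNA was lower.

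Chaperones of the endoplasmic reticulum did not follow to the same degree: 12 of 26 members were higher, 1 was lower and 13 were not called, with a median of 0.35. Hspa5, the chaperone BiP that defines the unfolded protein response, lay at 567, 467 and 504 FPKM in the MI libraries and 449, 382 and 552 FPKM in the sham libraries (log2 fold change 0.16, adjusted p = 0.38). Hsp90b1 and Calr also had overlapping levels. Xbp1, a transcription factor of this response, rose by 1.53 log2 units, and P4hb, protein disulfide isomerase, by 1.62. Herpud1, a factor of protein disposal there, was the member that fell, from 103 ± 12.1 to 42.3 ± 1.62 FPKM.

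The NRF2 and antioxidant list was divided as well, with 16 of 28 members higher and 10 lower (median 1.04). Hmox1, which breaks down haem, lay at 177, 253 and 226 FPKM in the MI libraries and 4.12, 6.34 and 4.74 FPKM in the sham libraries (log2 fold change 5.18 ± 0.28 (SE), adjusted p = 3.3e-10). Gsr, glutathione reductase, rose by 2.93 log2 units, Srxn1 by 2.07, Txnrd1 by 1.96 and Slc7a11, the cystine transporter, from 0.0489 ± 0.0179 to 5.33 ± 2.28 FPKM. Other established members of the same list fell: Nqo1, the quinone reductase, lay at 7.92, 8.60 and 12.5 FPKM in the MI libraries and 25.9, 27.1 and 25.3 FPKM in the sham libraries (log2 fold change -1.37 ± 0.22), Gstm1, a glutathione transferase, fell by 1.46 log2 units and Cat, catalase, fell by 1.25. Of the members named here, Gsr and Txnrd1, which rose, serve glutathione and thioredoxin recycling. Nqo1, Gstm1 and Cat, which fell, were expressed well above 1 FPKM in sham ventricle.

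Metallothioneins bind zinc and copper and respond to metals, glucocorticoids and cytokines. Mt2 lay at 1078, 1201 and 1053 FPKM in the MI libraries and 90.7, 100.4 and 80.4 FPKM in the sham libraries (log2 fold change 3.61 ± 0.25 (SE), adjusted p = 3.9e-09). Mt1 lay at 917, 972 and 1006 FPKM in the MI libraries and 269, 260.4 and 251 FPKM in the sham libraries (log2 fold change 1.89 ± 0.12). Mt1 was the more abundant of the pair in sham ventricles, and Mt2 was the more abundant in each MI library. Of 7 members 6 were higher, including Slc39a14, the zinc importer induced by interleukin 6, by 1.19 on the log2 scale. The Mt2 promoter, shown because its gene had the steepest rise of the list, covers the 250 bases before the start at chr8:94172368-94172617 on the plus strand of GRCm38.p6, with TGCACNC, the metal response core, in capitals.
Mt2: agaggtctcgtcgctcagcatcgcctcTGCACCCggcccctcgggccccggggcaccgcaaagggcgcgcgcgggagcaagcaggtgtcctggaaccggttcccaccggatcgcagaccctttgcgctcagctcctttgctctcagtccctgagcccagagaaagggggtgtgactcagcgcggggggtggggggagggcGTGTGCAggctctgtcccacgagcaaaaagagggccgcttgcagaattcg

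This core was held by 4 of 6 matched genes of the list (66.7%), among them Mt1 and Mt2 with 2 matches each. The shares were 14.21% of all genes and 15.08% of members. The fifth motif searched, the AP-1 site TGANTCA, was found in 1 of 30 matched immediate early genes, against 8.97% of all genes and 6.51% of members.

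Genes of the p53 response were higher in 17 of 22 members and lower in 5 (median 1.09). Cdkn1a, the cell cycle inhibitor p21, lay at 108, 132 and 123 FPKM in the MI libraries and 10.8, 10.8 and 11.9 FPKM in the sham libraries (log2 fold change 3.32 ± 0.24 (SE), adjusted p = 6.5e-09). Plk3 rose by 2.88 log2 units and Bax, a pore-forming protein of apoptosis, by 1.83, whereas Ccng1, a p53 target that was abundant in sham ventricle, fell from 217 ± 13.4 to 56.8 ± 5.63 FPKM. Cell death genes were higher in 24 of 30 members and lower in none (median 1.55), but 5 were lower after quantile normalization. Members of necroptosis and pyroptosis rose, Ripk3 by 2.84 log2 units, Mlkl by 1.96, Nlrp3 by 3.37 and Casp4 by 2.62, and so did survival genes, Mcl1 by 1.69 and Bcl2l1 by 2.18. Casp9 and Bad of the mitochondrial route had overlapping levels, with log2 fold changes of -0.08 and -0.09. Both were called lower under quantile normalization, under median-ratio scaling and in the deposited normalized values.

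Cardiomyocytes under strain switch on a set of stretch and fetal genes. Of 21 members 14 were higher and 2 lower (median 1.59). Nppb, the natriuretic peptide BNP, lay at 1443, 1397 and 1355 FPKM in the MI libraries and 233, 233 and 161 FPKM in the sham libraries (log2 fold change 2.76 ± 0.28 (SE), adjusted p = 2.6e-07). Ankrd1, a stretch sensor of the sarcomere, lay at 3151, 2889.5 and 2891 FPKM in the MI libraries and 493, 733 and 352 FPKM in the sham libraries (log2 fold change 2.56 ± 0.29), and the related Ankrd2, usually of skeletal muscle, rose from 1.83 ± 0.594 to 37.9 ± 10.4 FPKM. Flnc, filamin C, rose by 2.50 log2 units, Xirp2 by 2.11, Rcan1, a target of calcineurin, by 1.76 and Lmcd1 by 2.84. These genes are known from strained cardiomyocytes and rose while the sarcomere genes described below were lower. The fetal sarcomere genes had not risen: Acta1, skeletal actin, lay at 189, 165 and 274 FPKM in the MI libraries and 201, 259 and 151 FPKM in the sham libraries (log2 fold change 0.04), and Myh7, the fetal myosin heavy chain, at 42.6, 38.6 and 37.1 and 51.6, 65.5 and 50.2 FPKM (log2 fold change -0.48, adjusted p = 0.18). The Myh7 levels did not overlap, and a fit of the 6 libraries of 1 day alone called the gene lower.

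Ribosome biogenesis genes rose together: 29 of 30 members were higher and none lower (median 1.42, range 0.14 to 2.23). Nop58 of the small nucleolar complex rose from 8.74 ± 0.657 to 44.7 ± 3.43 FPKM, Gnl3 by 2.18 log2 units, Nop56 by 1.88 and Ncl, nucleolin, by 1.42. Polr1a, the large subunit of RNA polymerase I, had overlapping levels (log2 fold change 0.14). Cell division genes stayed low, and those that were members changed less. Of 33 cell cycle genes 24 stayed below the inclusion rule, Top2a and Mki67 among them at 0.207 and 0.475 FPKM in MI. Mki67 lay at 0.171 to 0.288 FPKM in sham libraries and was called higher with a pseudocount of 0.1. Others below the rule went the opposite way. Cenpf lay at 0.956 to 1.24 FPKM in sham and 0.0379 to 0.0891 FPKM in MI libraries. Tk1 lay at 0.588 to 1.43 FPKM in sham and 0.131 to 0.363 FPKM in MI libraries. Of the 9 members 7 were higher and none lower (median 0.59), with rises of 0.91 log2 units for Pcna and 0.86 for Mcm6. The list summed to 82.2 to 95.2 FPKM in MI and 52.4 to 58.9 FPKM in sham libraries.

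Genes of membrane currents were lower at 1 day. Of 17 potassium channel members 15 were lower and none was higher (median -1.69). Kcnip2, the subunit that brings the transient outward channel to the membrane, lay at 7.77, 5.77 and 8.15 FPKM in the MI libraries and 57.3, 50.7 and 57.7 FPKM in the sham libraries (log2 fold change -2.78 ± 0.30 (SE), adjusted p = 4.6e-07). Kcnj3, of the channel opened by acetylcholine, lay at 1.46, 0.658 and 1.18 FPKM in the MI libraries and 14.0, 15.5 and 16.3 FPKM in the sham libraries (log2 fold change -2.97 ± 0.22). Its partner Kcnj5 fell by 2.41 log2 units. Kcnj11, the pore of the channel closed by ATP, lay at 4.96, 2.99 and 5.17 FPKM in the MI libraries and 32.0, 32.1 and 34.1 FPKM in the sham libraries (log2 fold change -2.68 ± 0.30), and its regulators Abcc8 and Abcc9 fell, with log2 fold changes of -1.71 and -1.53. The pore and both regulators of this channel were therefore lower together. Kcnk3, a background channel, fell by 2.71 log2 units and Kcnh2, which carries the rapid delayed current, fell by 2.37. Kcnj8, which vascular cells use as their ATP-sensitive pore, had overlapping levels of 11.5 to 12.2 FPKM in MI and 11.9 to 15 FPKM in sham libraries, and so had Kcna5. Kcnj8 was called lower under quantile normalization and in the deposited normalized values.

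Of 16 sodium channel, pacemaker and gap junction members 11 were lower and 2 higher (median -0.92). Scn4b, a β subunit of the cardiac sodium channel, fell from 4.76 ± 0.688 to 0.441 ± 0.0412 FPKM. Gja1, the main ventricular connexin, fell by 0.58 log2 units, and Gja4, a connexin of vessels, rose by 0.59. Calcium cycling genes were lower in 18 of 23 members and higher in 2 (median -1.18). Atp2a2, the calcium pump of the sarcoplasmic reticulum, lay at 656, 551 and 708 FPKM in the MI libraries and 2679, 2681 and 2867 FPKM in the sham libraries (log2 fold change -2.11 ± 0.26 (SE), adjusted p = 2.8e-06). Cacna1c, the L-type channel, fell from 16.9 ± 1.83 to 3.84 ± 0.861 FPKM, Ryr2, the release channel, fell by 1.74 log2 units and Tmem38a fell by 1.94, whereas Sri, sorcin, rose by 0.81. Camk2d, the kinase that regulates several of them, had overlapping levels (log2 fold change -0.04).

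Sarcomere genes were lower in 24 of 30 members (median -1.12). Myh6, the adult myosin heavy chain, lay at 786, 619 and 796 FPKM in the MI libraries and 2788, 2764 and 2734 FPKM in the sham libraries (log2 fold change -1.92 ± 0.39 (SE), adjusted p = 3.4e-04). Fhl2, a scaffold at the Z-disc, fell by 2.11 log2 units and Cmya5 fell by 2.30, but Tnnc1, the troponin that binds calcium, was not called at 1596, 1244 and 1599 FPKM in MI and 2337, 2122 and 2041 FPKM in sham libraries. Tnnc1 was called lower in a fit of the 6 libraries of 1 day alone. Synpo2l, a Z-disc protein, was the member that rose, from 21.2 ± 1.31 to 93.6 ± 15.9 FPKM. Summed over the list the sarcomere genes held 16836 to 21216 FPKM in MI and 39275 to 42728 FPKM in sham libraries. Fewer cardiomyocytes and less RNA per cardiomyocyte cannot be told apart here. All 12 leukocyte adhesion genes and all 12 neutrophil granule genes were higher in the same libraries, with granule sums of 5888 to 9561 FPKM in MI and 70.6 to 98.1 FPKM in sham libraries, and the part of leukocyte mRNA in the falls of cardiac genes was not tested.

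Control genes of the cardiomyocyte fell with them. Of 31 cardiac transcription regulators 27 were lower and 2 higher (median -0.89). Ppargc1a, the coactivator of mitochondrial genes, lay at 2.30, 1.40 and 2.34 FPKM in the MI libraries and 12.3, 12.6 and 13.1 FPKM in the sham libraries (log2 fold change -2.20 ± 0.20 (SE), adjusted p = 8.8e-08). Ppara, the receptor that drives fatty acid use, fell from 10.2 ± 0.486 to 1.53 ± 0.358 FPKM, and the estrogen-related receptors Esrra, Esrrb and Esrrg fell, with log2 fold changes of -1.45, -1.52 and -1.82. Irx4, a ventricular factor, fell by 2.22 log2 units, and Klf15 fell by 1.81. The lineage factors Gata4, Nkx2-5 and Tbx5 fell, with log2 fold changes of -0.89, -0.86 and -0.92. Ppard rose by 0.81 log2 units, against its relative Ppara. Among adrenergic and second messenger genes 19 of 27 were lower and 5 higher (median -0.77). Adra1b fell by 2.06 log2 units and Adrb1, the main cardiac β receptor, from 5.42 ± 0.258 to 2.01 ± 0.506 FPKM. The cyclases Adcy5 and Adcy6 fell, with log2 fold changes of -1.46 and -1.55. Against this direction, Pde4b, which breaks down cAMP, rose by 2.22 log2 units.

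Genes of mitochondrial fuel use were lower as well. All 22 genes of branched-chain amino acid and ketone use were lower (median -1.49, range -2.45 to -0.82). Ppm1k, the phosphatase that activates branched-chain ketoacid breakdown, lay at 2.80, 1.76 and 2.83 FPKM in the MI libraries and 16.7, 18.8 and 17.7 FPKM in the sham libraries (log2 fold change -2.45 ± 0.15 (SE), adjusted p = 1.0e-09). Oxct1, which lets heart burn ketone bodies, fell from 276 ± 18 to 90.6 ± 12.6 FPKM, Bdh1 fell by 1.82 log2 units and Mut fell by 1.81. Citric acid cycle genes were lower in 22 of 23 members within a narrow range of -1.59 to -0.80 (median -1.23). Ogdh fell from 221 ± 2.39 to 73.1 ± 7.09 FPKM and Cs, citrate synthase, from 388 ± 7.39 to 159.6 ± 13.9 FPKM. Pcx, which refills the cycle, was the member not called (adjusted p = 0.052), and 7 of the alternatives called it lower. Pdk4, which blocks pyruvate entry and was measured in another list, lay at 108, 158 and 140.1 FPKM in the MI libraries and 68.8, 89.9 and 114 FPKM in the sham libraries and was not called (log2 fold change 0.58).

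Clock genes divided: of 18 members 6 were higher and 7 lower (median 0.11). Nfil3, a repressor that cytokines also induce, lay at 40.7, 60.8 and 58.7 FPKM in the MI libraries and 4.78, 5.06 and 5.44 FPKM in the sham libraries (log2 fold change 3.14 ± 0.19 (SE), adjusted p = 9.1e-10). Per1 rose by 1.81 log2 units and Dbp, an output gene that Nfil3 opposes, lay at 4.06, 4.17 and 5.77 FPKM in the MI libraries and 17.1, 14.1 and 17.9 FPKM in the sham libraries (log2 fold change -1.62 ± 0.24), with its relatives Tef and Hlf also lower, with log2 fold changes of -1.05 and -1.07. The core gene Arntl had a log2 fold change of 0.25 without a call. The hour of collection is not given in the sources used here, so a difference in hour and the operation cannot be told apart for these genes.

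Lists of vessel cells had medians nearer to 0. Endothelial genes were higher in 11 and lower in 6 of 23 members (median 0.30). Cldn5, a tight junction protein, lay at 42.2, 49.1 and 39.4 FPKM in the MI libraries and 10.4, 11.1 and 13.8 FPKM in the sham libraries (log2 fold change 1.81 ± 0.20 (SE), adjusted p = 8.0e-07), and Nos3 rose by 1.40 log2 units, while Aplnr, the apelin receptor, fell from 12.7 ± 0.332 to 2.72 ± 0.327 FPKM, Kdr, the main VEGF receptor, fell by 0.66 and Aqp1 fell by 0.83. Pericyte and smooth muscle genes were lower in 9 of 16 members and higher in 2 (median -0.57). Colec11 fell by 2.01 log2 units, Vtn fell by 1.58 and Myh11, smooth muscle myosin, from 7.94 ± 0.962 to 2.12 ± 0.316 FPKM, and Pdgfrb had overlapping levels (log2 fold change 0.13).

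The scar program was split in time. Fibroblast identity genes were higher in 4 and lower in 5 of 21 members (median -0.18). The collagens Col1a1 and Col3a1 lay at 15.7, 12.8 and 13.5 and 34.2, 30.3 and 31.8 FPKM in MI and at 14.6, 15.3 and 18.4 and 32.2, 36.1 and 42.0 FPKM in sham libraries, with overlap and no call. Htra3 fell from 23.4 ± 3.61 to 4.53 ± 0.620 FPKM. The activated fibroblast list had 10 of 13 members higher and 2 lower (median 1.48), among them Tnc, tenascin C, from 1.27 ± 0.395 to 47.2 ± 12 FPKM. Lgals3, which macrophages also express, rose by 4.04 log2 units and Lox, which crosslinks collagen, by 3.14. Postn, periostin of matrix-producing fibroblasts, lay at 25.6, 27.8 and 25.3 FPKM in the MI libraries and 8.27, 9.06 and 8.96 FPKM in the sham libraries (log2 fold change 1.48 ± 0.27). Aldh1a2, which makes retinoic acid in activated epicardium, rose from 3.25 ± 0.789 to 50.2 ± 8.03 FPKM, but Upk3b and Msln, markers of the same layer, stayed at or below 0.110 FPKM on average. Of the adipocyte list Cidea, a lipid droplet protein that heart also expresses, was the member, at 18.5 FPKM in sham and 4.67 FPKM in MI libraries (log2 fold change -1.80), and the secreted Cfd reached 0.572, 23.0 and 0.206 FPKM in MI replicates 1, 2 and 3, a difference between libraries and not a call. The skeletal muscle list summed to 2.32 to 2.67 FPKM in MI and 2.69 to 4.2 FPKM in sham libraries and the nerve list to 4.6 to 6.75 and 4.77 to 5.78 FPKM. Of 3 atrial members Nppa, which strained ventricle also expresses, rose from 223 ± 50.1 to 860.1 ± 105 FPKM and held nearly all of the list's sum, 1 was lower and the median was -0.37. The dendritic and mast cell list summed to 14.3 to 16.1 and 7.17 to 9.14 FPKM. Of 9 red cell and platelet members 3 were higher, Ppbp, Pf4 and Itga2b of platelets, and the haemoglobin genes were not called.

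The changes at 1 day were then set against those at the other stages, each measured against its own sham group of 3 other libraries. In a single fit the log2 fold change at 1 day was above that at 1 week for 1505 members and below it for 6511, beside 11.8% and 60.0% of all genes tested. Against 8 weeks 1508 members lay above and 5604 below, beside 11.9% and 51.8% of all genes tested. This imbalance followed the scale: the median fold change of members was 0.13, 0.74 and 0.50 at the 3 stages in time order, and the counts against 1 week became 3762 and 3274 under quantile normalization, or 4895 and 2474 under median-ratio scaling. A difference between stages is therefore given for a list in all 3 scalings.

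Several programs had a larger change at 1 day than at 1 week by this test. Neutrophil surface genes had a median of 5.28 at 1 day and 0.55 at 1 week, and their change at 1 day was above that at 1 week in 17 of 18 members, while quantile normalization gave 18 and median-ratio scaling 18. Stfa2l1 had log2 fold changes of 7.16, 0.38 and 0.39 in time order (difference between 1 day and 1 week 6.79 ± 0.30, adjusted p = 3.6e-10). Immediate early genes were above in 25 of 37 (31 and 34 in the other scalings), hypoxia targets of glucose use in 17 of 19 (19 and 19) and ribosome biogenesis genes in 27 of 30 (29 and 30), with none below in any scaling for the latter pair of lists. Slc2a1 fell back from 4.44 at 1 day to 1.29 at 1 week (difference 3.15 ± 0.14), and Hspb1 from 2.55 to -0.23 (difference 2.78 ± 0.19). Vegfa was higher at 1 day by 0.70 log2 units and had a log2 fold change of -1.91 at 1 week (difference 2.62 ± 0.19). Recruited monocyte genes had medians of 3.36 and 3.27, with 7 of 18 members above and 3 below. Their medians were 3.12 and 2.61 under quantile normalization (9 above and 3 below) and 3.42 and 2.53 under median-ratio scaling (10 above and 3 below).

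Losses differed in how far they had gone by 1 day. Potassium channel genes had medians of -1.69 at 1 day and -1.55 at 1 week, with 1 of 17 members below and 5 above. The order of these medians turned round in the other scalings, to -1.83 and -2.19 with 6 above under quantile normalization and to -1.82 and -2.22 with 7 above under median-ratio scaling, with none below in either. Kcnj3 had log2 fold changes of -2.97 and -2.86 (difference -0.11 ± 0.32, adjusted p = 0.77) and Ppargc1a of -2.20 and -2.33 (difference 0.13 ± 0.28, adjusted p = 0.69), which does not show that the stages were equal. Citric acid cycle genes were already lower at 1 day and lower still at 1 week, with medians of -1.23 and -2.31 and 22 of 23 members above in each of the 3 scalings. Sarcomere genes had medians of -1.12 and -2.37, with 21 of 30 above (25 and 28 in the other scalings). Myl2 had log2 fold changes of -1.23 at 1 day and -3.84 at 1 week (difference 2.61 ± 0.57, adjusted p = 7.8e-04), and Ckm, muscle creatine kinase, of -1.26 and -4.31 (difference 3.05 ± 0.55). The call of Myl2 at 1 day was lost under 2 of the alternatives.

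Some genes were lower at 1 day than at 1 week relative to sham. Angpt1 had log2 fold changes of -3.15 at 1 day, -0.20 at 1 week and 0.14 at 8 weeks (difference between 1 day and 1 week -2.95 ± 0.28, adjusted p = 3.1e-07). Aplnr had log2 fold changes of -1.89, 1.24 and 0.47 at these stages (difference -3.13 ± 0.21, adjusted p = 1.8e-08). Gas6 had -1.33, 2.44 and 2.45 on the same scale (difference -3.77 ± 0.33, adjusted p = 1.4e-07). Fibroblast genes were higher later, with medians of -0.18 and 2.83 and 19 of 21 members below their change at 1 week (18 and 17 in the other scalings), and activated fibroblast genes with 12 of 13 (12 and 11). Endoplasmic reticulum chaperones had 20 of 26 members below their change at 1 week, but 16 and 10 in the other scalings.

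**Figure D5:**
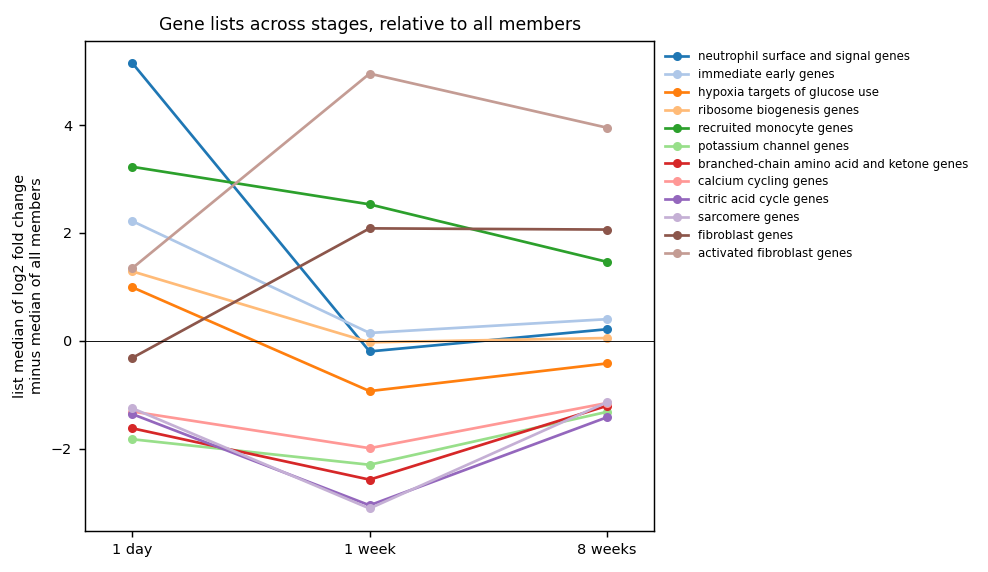
Median log2 fold change of each list for the 3 stages after MI (1 day, then 1 week, then 8 weeks), each stage against its own sham libraries (3 against 3), minus the median of all members at that stage; stages are drawn at equal spacing and lines join the medians. Neutrophil surface genes start highest at 1 day and drop to near 0, fibroblast lists climb after 1 day, and sarcomere and citric acid cycle genes are lowest at 1 week.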

How the data were processed

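RNA-seq had been done on left ventricles at 3 stages after MI or sham surgery. The authors deposited FPKM per gene from TopHat2 2.0.13, Bowtie2 2.2.3 and Cufflinks 2.2.1 on mm10 (per the submitters' processing notes, options not given in the sources used here), and log2(FPKM + 1) values that the authors normalized, which were used as an alternative here. Deposited fold changes and p-values of the authors were not used.

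Members and gene lists were chosen with earlier results of these data known. limma 3.58.1 in R 4.3.3 was fitted with an intensity trend to log2(FPKM + 1) of the 18 mRNA libraries in 6 groups, over 12858 genes with at least 1 FPKM in 3 libraries, with Benjamini-Hochberg adjustment. Fold changes on this scale understate those of low genes. FPKM carry no read counts, so no count test and no depth could be given. Members just inside and just outside the rule had a deciding library at 1.00015 and 0.999972 FPKM.

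Of 1089 symbols in 53 lists, 1056 had a row and 877 were members, of which 474 were higher and 261 lower. Genes were named by size (the 15 largest rises and falls, up to 6 per list, the largest opposite mover, and the 10 largest rises and falls for the stages) or by role. Promoters are from RefSeq for GRCm38.p6. On simulated data, changes of 0.5, 1 and 2 log2 units among 200 of 12858 genes were recovered at 58.21, 86.57 and 100 percent. Python 3.11.15, pandas 2.3.3 and matplotlib 3.10.9 were used. Results for some named items are not reported here.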

Additional observations from a re-analysis of the deposited data

Results flagged for a closer look

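Of the 20 largest rises and falls, 12 had a change at 1 day that differed from the change at 1 week by limma's test of the difference itself, in the deposited FPKM and in both other scalings. All 10 rises were larger at 1 day. The log2 difference was 7.836 for Retnlg, 7.129 for S100a9, 6.73 for S100a8, 6.788 for Stfa2l1, 6.117 for Il1r2, 5.535 for Slfn4, 5.902 for Cxcl2 and 4.772 for Chil3, which are genes of neutrophils and early monocytes. It was smaller for AA467197 (3.293) and for Arg1 (2.9), which were still higher at 1 week, by 3.48 and 3.40. Among the 10 falls Angpt1 had a log2 difference of -2.951 and Grb14 of -1.433, both lower at 1 day than at 1 week. For the other 8 falls the test of the difference did not pass.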

How the results depend on the processing

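The counts of 4888 higher and 3691 lower genes stayed within 1.5 times under the other pseudocount, no filter, members tested alone, quantile normalization, median-ratio factors, the authors' normalized values, the 6 libraries alone, no trend and each left-out library (4399 to 4956 higher and 3435 to 3611 lower). They moved to 3036 and 2286 when a mean of 5 FPKM was required, a setting that tests fewer genes. With the replicate number as a block 4846 were higher and 3640 lower. A fit of the 6 libraries of 1 day alone gave 5277 higher and 3962 lower. The deviations of same-numbered libraries correlated at 0.17, 0.01 and 0.05, so the numbers were not read as a pairing. Against 1 week, 1505 members lay above and 6511 below, 3762 and 3274 after quantile normalization and 4895 and 2474 with median-ratio factors. Against 8 weeks, 1508 lay above and 5604 below, 3547 and 3184 after quantile normalization and 4311 and 2587 with median-ratio factors. These scalings remove the shift of the median by construction. Of 106 list counts 22 moved by over 1.5 times under a setting other than the mean of 5 FPKM. Of 395 genes that the naming rule chose or the text names, 31 changed their call under at least 1 setting. None changed sign in a setting where it was called in that fit or in the main fit. Sign changes of uncalled genes were not counted. Of genes given as not called, Arntl, Hk2, Pdk4 and Ptgs1 were called higher and Pdk1 lower in the 6 libraries alone. Lrg1 was called higher there and with the replicate block, and F3 and G0s2 were called higher without MI replicate 1. Without MI replicate 1 the counts were 4956 and 3435. Log2 values of low genes are the least certain, since an FPKM near the pseudocount of 1 damps their change, and sequencing depth is unknown.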
